A study of Homo sapiens with 12 samples.

Results

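The 42 genes described here carry out the entry into S phase and the copying of DNA, from origin licensing to chromatin assembly. They were listed by name for these roles and are 42 of the 58780 gene IDs in each deposited table and 42 of the 26688 genes tested. Poly(A)+ RNA was sequenced from HEK293 cells, an embryonic kidney line used here as its Flp-In T-REx derivative, in 12 libraries. Triple KD cells received siRNAs against SAFB1 (gene SAFB), SAFB2 and SLTM together, SAFB1 KD cells the SAFB1 siRNA, SLTM KD cells the SLTM siRNA, and control cells control siRNA, with 3 libraries in each group that the series calls biological replicates. Negative control siRNA brought the amount in each single knockdown up to that of triple KD, and every group is the same cell line harvested on the second day. Knockdown of SAFB2 alone was not analysed here.

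Before S phase, the origin recognition complex (ORC) with CDC6 and CDT1 loads the MCM2-7 helicase onto DNA, and geminin (GMNN) blocks CDT1 once replication has begun. CDC45 and the GINS complex then join MCM2-7 to form the active helicase, primase and polymerase alpha start each strand, and polymerases delta and epsilon extend it on the PCNA clamp loaded by replication factor C (RFC). Ribonucleotide reductase and thymidylate synthase supply the nucleotides. Many of these genes are transcribed at G1/S by E2F factors, which the retinoblastoma protein RB holds in check. HEK293 cells carry adenovirus early genes, among whose products are proteins that bind RB. In bulk RNA, fewer cells of a phase and less RNA per cell cannot be told apart.

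The siRNA sense strands are shown because they define the groups, with the 19 paired bases in capitals. None of them matched a transcript of any of the 42 genes over its full paired length, and each fully matched transcripts of 1 gene, its own target.
SAFB1 siRNA: GGACCAAGAUGAUCAGAAAtt
SAFB2 siRNA: GGACGGUCGUGAUGGAUAAtt
SLTM siRNA: GCAUUAGAAUAAUUCGUGAtt

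Promoters of these genes are shown because E2F control is what their textbook regulation shares. Many genes with these roles are known E2F targets, so the share of the genes with an E2F word is not an independent result. RefSeq promoter windows (GRCh38.p14, 250 bases before to 50 after each start) were found for 37 of the 42 genes. The E2F words searched were TTTCGCGC, TTTGGCGC, TTTCCCGC and TTTGCCGC, on either strand. They overlap each other where both strands of a site match. At least 1 word stood in a window of 19 of the 37 genes (51.4%), against 3.32% of the 35116 windows in the table and 3.99% of its 27305 gene symbols. The 25 words began between positions -187 and 7 from the start, 15 of them within 100 bases upstream. In the 60-base stretches below, written 5′ to 3′ on the strand of the gene, capitals mark the E2F words.
GINS3, chr16:58392446-58392505, plus strand: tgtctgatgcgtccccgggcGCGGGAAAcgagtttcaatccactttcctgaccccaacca
MCM2, chr3:127598393-127598452, plus strand: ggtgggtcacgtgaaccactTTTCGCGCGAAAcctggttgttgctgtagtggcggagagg
TYMS, chr18:657594-657653, plus strand: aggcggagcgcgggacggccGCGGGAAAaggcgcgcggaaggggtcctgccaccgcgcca
GMNN, chr6:24775313-24775372, plus strand: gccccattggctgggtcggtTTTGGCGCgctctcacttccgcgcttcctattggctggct
RFC3, chr13:33818074-33818133, plus strand: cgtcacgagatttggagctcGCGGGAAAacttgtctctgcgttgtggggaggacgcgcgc
POLE, chr12:132687321-132687380, minus strand: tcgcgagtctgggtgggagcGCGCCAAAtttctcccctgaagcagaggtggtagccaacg
CDC6, chr17:40287866-40287925, plus strand: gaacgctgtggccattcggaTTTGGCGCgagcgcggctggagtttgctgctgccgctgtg
MCM6, chr2:135876556-135876615, minus strand: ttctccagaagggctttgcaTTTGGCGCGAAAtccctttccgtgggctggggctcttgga
The first 3 belong to genes that rose in triple KD cells, the next 4 to genes that fell, and MCM6 to a gene that was not called. A word was present in 7 of the 14 risen genes with a window, 7 of the 12 fallen genes and 5 of the 11 genes that were not called. These matches are letters in a window and say nothing of binding.

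RRM2 fell most of the 42 genes and had no E2F word in either of its 2 windows. The window printed here was picked from the 2 because it holds 3 CCAAT boxes, in capitals, a motif searched only after this window had been read. At least 3 such boxes, on either strand, stood in a window of 8 of the 37 genes (CDC45, CDC6, CHAF1A, MCM3, MCM7, PCNA, RRM2 and UNG), against 3.26% of all windows and 3.92% of gene symbols. Of those 8 genes, 4 rose in triple KD cells (CDC45, CHAF1A, MCM3 and UNG) and 4 fell.
RRM2 promoter window, chr2:10122489-10122788, plus strand: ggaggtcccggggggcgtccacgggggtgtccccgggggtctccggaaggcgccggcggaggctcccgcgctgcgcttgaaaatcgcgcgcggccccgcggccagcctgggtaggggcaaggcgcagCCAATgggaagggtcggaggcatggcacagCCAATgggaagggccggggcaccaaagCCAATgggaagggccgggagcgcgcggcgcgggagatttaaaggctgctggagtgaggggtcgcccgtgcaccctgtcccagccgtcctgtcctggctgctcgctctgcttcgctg

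The libraries held 56856228 to 75533510 counts, and the 42 genes had 507 to 75009 counts each per library. Levels between libraries are in CPM, the counts of a gene over the library total after scaling by the trimmed mean of M values (TMM), with factors of 0.992 to 1.01. Replicates spread little, with a biological coefficient of variation of 2.14%, so differences of a few per cent could be called. The siRNA targets were low where labelled: SAFB averaged 38.2 ± 1.57 CPM in triple KD cells and 45.3 ± 0.905 CPM in SAFB1 KD cells, against 232 ± 2.27 CPM in control cells (SD, n = 3 each). SLTM averaged 25.0 ± 2.15 CPM in triple KD, 20.5 ± 1.88 CPM in SLTM KD and 116 ± 1.17 CPM in control cells. SAFB2 averaged 29.1 ± 1.12 CPM in triple KD and 209 ± 3.76 CPM in SAFB1 KD, where it rose, against 126 ± 2.49 CPM in control cells. All 8 HEK293 marker genes were detected in every library, the lowest being NEFM at 1.12 to 1.92 CPM, and their summed level was 1672 to 1694 CPM in triple KD, 1756 to 1805 CPM in SAFB1 KD, 1809 to 1844 CPM in SLTM KD and 1741 to 1775 CPM in control libraries. The part of that difference in the results was not tested. The summed level of 5 leukocyte markers was 0.0297 to 0.201 CPM over all libraries, that of 5 fibroblast markers 13.5 to 16.3 CPM, of 4 colon epithelium markers 27.6 to 33.5 CPM and of 5 squamous epithelium markers 3.80 to 4.64 CPM. Single genes made up most of these last sums: COL1A1 (11.5 to 13.7 CPM), CDX2 (27.3 to 33.3 CPM) and SFN (3.76 to 4.56 CPM). VIM (1070 to 1175 CPM) did so in the HEK293 sum. CDX2 stood above the HEK293 markers PAX2 (3.49 to 5.52 CPM), LHX1 (4.83 to 6.83 CPM) and NEFM.

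Triple KD changed many of the 42 genes, by small amounts and in both directions. Against control, 15 rose, 12 fell and 15 were not called (edgeR quasi-likelihood test, Benjamini-Hochberg adjusted over all genes tested, adjusted p under 0.05). Over all genes tested, 19.4% rose and 20.9% fell. With upper-quartile scaling, 19 of the 42 rose and 8 fell, and the shares of all genes called with that scaling were not counted. Genes of this abundance are called more often: among 9560 protein-coding genes with mean levels within the range of the 42 (10.5 to 982 CPM), 34.1% rose and 37.2% fell. The median log2 fold change of the 42 genes was 0.0081, against -0.0044 over all genes tested, with 23 values above 0 and 19 below. Their median absolute log2 change was 0.084, against 0.27 over all genes tested and 0.14 in the protein-coding genes of the same range.

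**Figure D1:**
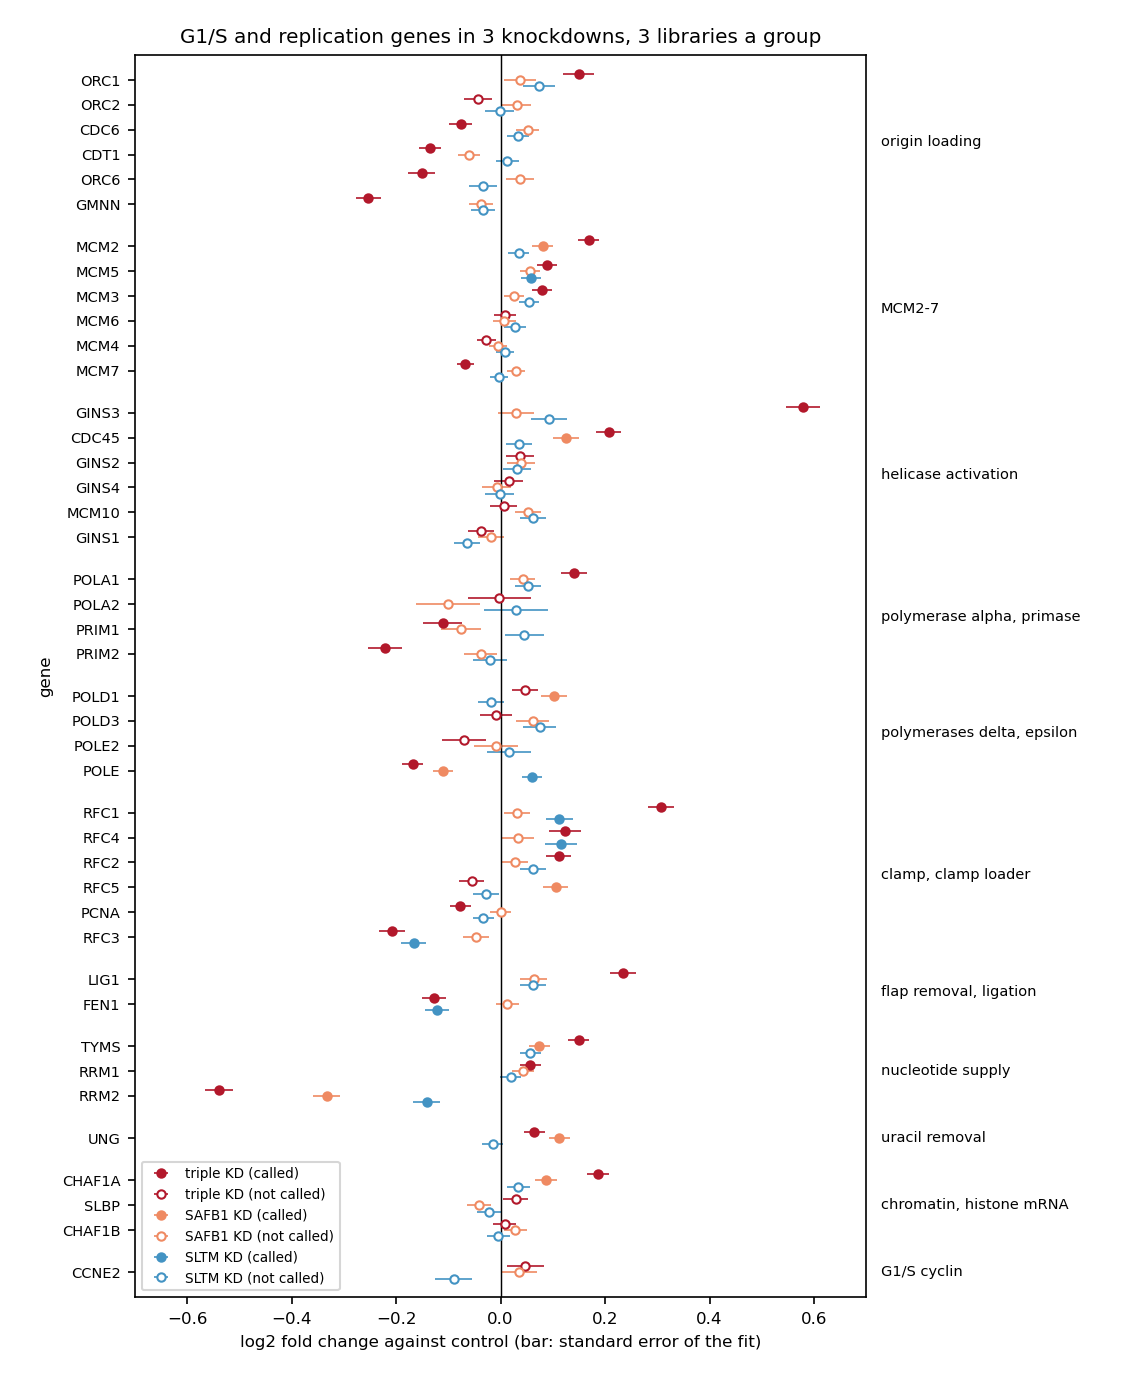
Log2 fold change against control (x axis) of each of the 42 genes (rows, grouped by role) in triple KD, SAFB1 KD and SLTM KD, with the standard error of the fit as the bar and filled points for called genes. GINS3 (0.58) and RRM2 (-0.54) in triple KD stand farthest from 0, and 22 of the 42 genes lie within 0.1 of it.

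Few changes were large. A change over 1.2-fold was called for GINS3, which rose, and for RRM2, which fell (edgeR glmTreat), whereas 5.95% of all genes tested rose and 7.01% fell past that size. No gene of the 42 passed a test for a change over 2-fold in triple KD, by edgeR or by DESeq2, and none reached an unadjusted p under 0.05 in either test. That test called 0.955% of all genes. The 3 triple KD libraries did not overlap the 3 control libraries for 17 higher and 13 lower genes of the 42, against 23.6% and 24.5% of all genes tested.

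**Figure D2:**
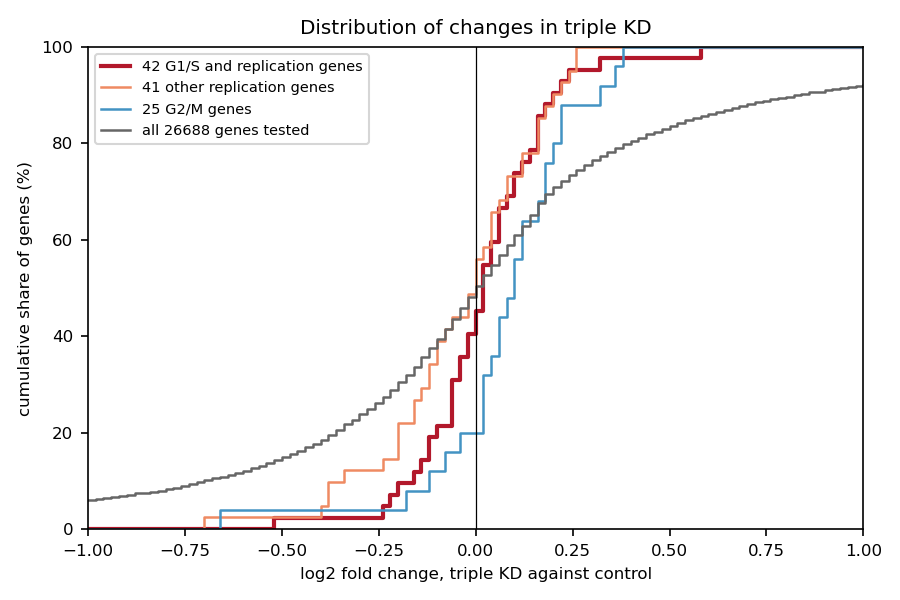
Cumulative share of genes (y axis, per cent) by the log2 change of triple KD from control (x axis) for the 42 genes, 41 other replication genes, 25 G2/M genes and all 26688 genes tested. The curve of the 42 genes is steeper than that of all genes and both cross 50% close to 0, while the G2/M curve lies to the right with a median of 0.087.

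Origin licensing genes changed in both directions in triple KD cells. Of 6, 4 fell (GMNN, ORC6, CDT1 and CDC6), ORC1 rose, and ORC2 was not called (log2 fold change -0.043). GMNN had 132, 129 and 129.8 CPM in the triple KD libraries, against 153, 155 and 158 CPM in the control libraries. GMNN encodes geminin, the inhibitor of CDT1. GMNN fell by 16.1%, with no overlap between triple KD and control libraries (log2 fold change -0.25 ± 0.0233, SE, adjusted p = 1.69e-14). CDT1 had 189, 193 and 185 CPM in the triple KD libraries, against 207, 209.9 and 206 CPM in the control libraries. CDT1, with CDC6, recruits MCM2-7 to origins. For CDT1, which fell by 8.93% in triple KD cells, the groups did not overlap (log2 fold change -0.14 ± 0.0214, SE, adjusted p = 2.56e-07). ORC6 had 82.7, 79.6 and 81.7 CPM in the triple KD libraries, against 88.7, 90.0 and 92.2 CPM in the control libraries. ORC6 is the smallest ORC subunit. Every triple KD library stood below the control range for ORC6, and the gene fell by 9.96% (log2 fold change -0.15 ± 0.0263, SE, adjusted p = 1.87e-06). ORC1 had 57.0, 59.4 and 56.9 CPM in the triple KD libraries, against 52.5, 50.4 and 53.4 CPM in the control libraries. ORC1 is the largest ORC subunit and binds ATP. All 3 triple KD libraries of ORC1 lay above the control libraries, and it rose by 10.9% (log2 fold change 0.15 ± 0.0301, SE, adjusted p = 2.93e-05). CDC6, an ATPase that acts with CDT1 in loading, averaged 164 ± 1.94 CPM in triple KD and 173 ± 2.63 CPM in control cells. It fell by 5.16% (adjusted p = 0.00294), a call lost with upper-quartile scaling (adjusted p = 0.11). In neither single knockdown was any of the 6 called.

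The MCM2-7 subunits, which work as 1 hexamer, did not move together in triple KD cells. MCM2, MCM3 and MCM5 rose, MCM7 fell, and MCM4 and MCM6 were not called. MCM2 had 337, 336 and 333 CPM in the triple KD libraries, against 294, 302 and 299 CPM in the control libraries. MCM2 rose by 12.4%, with no overlap between triple KD and control libraries (log2 fold change 0.17 ± 0.0198, SE, adjusted p = 7.43e-11). MCM5 rose by 6.35% (adjusted p = 9.76e-05) and MCM3 by 5.70% (adjusted p = 0.000409). MCM7 averaged 944 ± 3.04 CPM in triple KD and 989 ± 3.88 CPM in control cells and fell by 4.56% (adjusted p = 0.000791), a call lost with upper-quartile scaling (adjusted p = 0.13). The log2 fold changes of MCM4 and MCM6 were -0.027 and 0.0083. Per length, as TPM, counts per annotated exon length scaled to the same sum in each library, MCM7 was highest of the 6 with 732 ± 4.27 TPM in triple KD and 789.7 ± 5.58 TPM in control cells, followed by MCM3 with 528 ± 3.77 TPM in triple KD and 515 ± 1.22 TPM in control cells. MCM5 was lowest with 167 ± 1.99 TPM in triple KD and 162 ± 2.43 TPM in control cells. In triple KD cells MCM2 and MCM6 had 274 ± 3.45 and 239 ± 2.33 TPM, and in control cells 251 ± 2.07 and 244 ± 3.57 TPM. The length used joins all annotated exons of a gene, 7268 bases for MCM5 and 4135 for MCM6. It is at least that of any single transcript, so the order by TPM depends on the annotation. In CPM, control cells had more MCM5 (296 ± 2.96) than MCM6 (255 ± 5.95). TPM and CPM are scaled differently and need not move alike between groups.

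**Figure D3:**
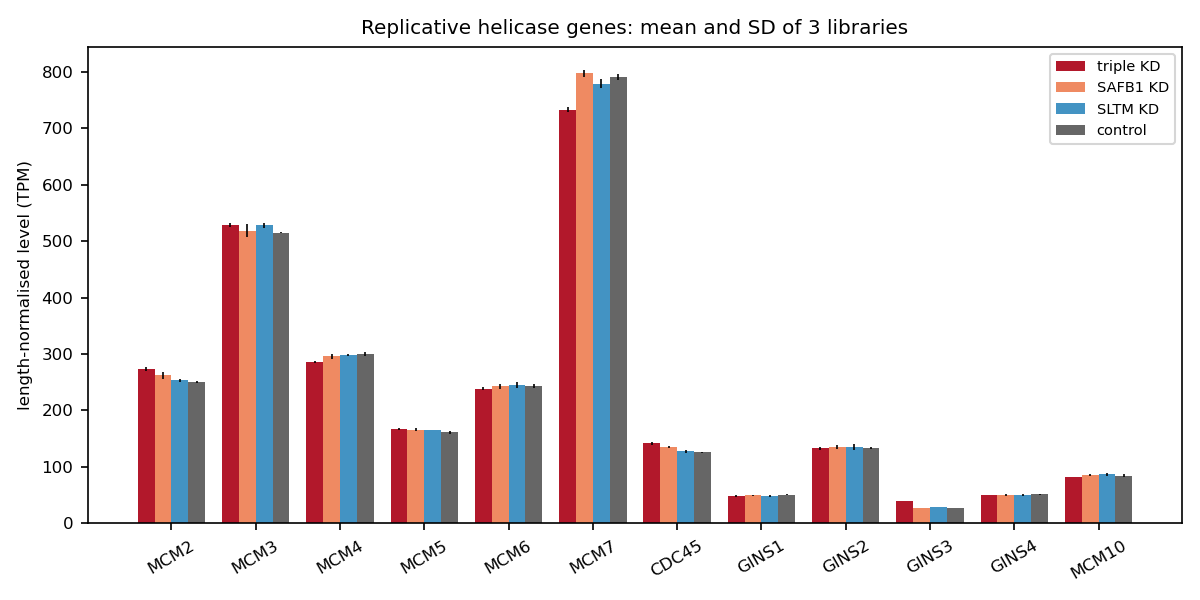
Length-normalised level (y axis, TPM) of the replicative helicase genes in triple KD, SAFB1 KD, SLTM KD and control cells, as mean and SD of 3 libraries. MCM7 was highest in every group and GINS3 lowest of these genes in every group.

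Among the helicase activation genes, GINS3 rose most of the 42 genes and CDC45 also rose. GINS1, GINS2, GINS4 and MCM10 were not called. GINS3 had 52.1, 53.4 and 52.0 CPM in the triple KD libraries, against 34.0, 35.2 and 36.1 CPM in the control libraries. GINS3 is 1 of the 4 subunits of GINS, which share 1 complex. For GINS3, which rose by 49.4% in triple KD cells, the groups did not overlap (log2 fold change 0.58 ± 0.0325, SE, adjusted p = 1.09e-23). The other GINS genes had log2 fold changes of -0.037 (GINS1), 0.036 (GINS2) and 0.015 (GINS4), so that within the complex GINS3 alone was called. GINS3 lies on chromosome 16 and no gene on the same strand overlaps it in the annotation used. CDC45 had 111, 108 and 109 CPM in the triple KD libraries, against 94.6, 94.5 and 95.6 CPM in the control libraries. CDC45 links MCM2-7 and GINS. Every triple KD library stood above the control range for CDC45, and the gene rose by 15.4% (log2 fold change 0.21 ± 0.0245, SE, adjusted p = 9.60e-11). MCM10, needed for helicase activation, had a log2 fold change of 0.0056.

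**Figure D4:**
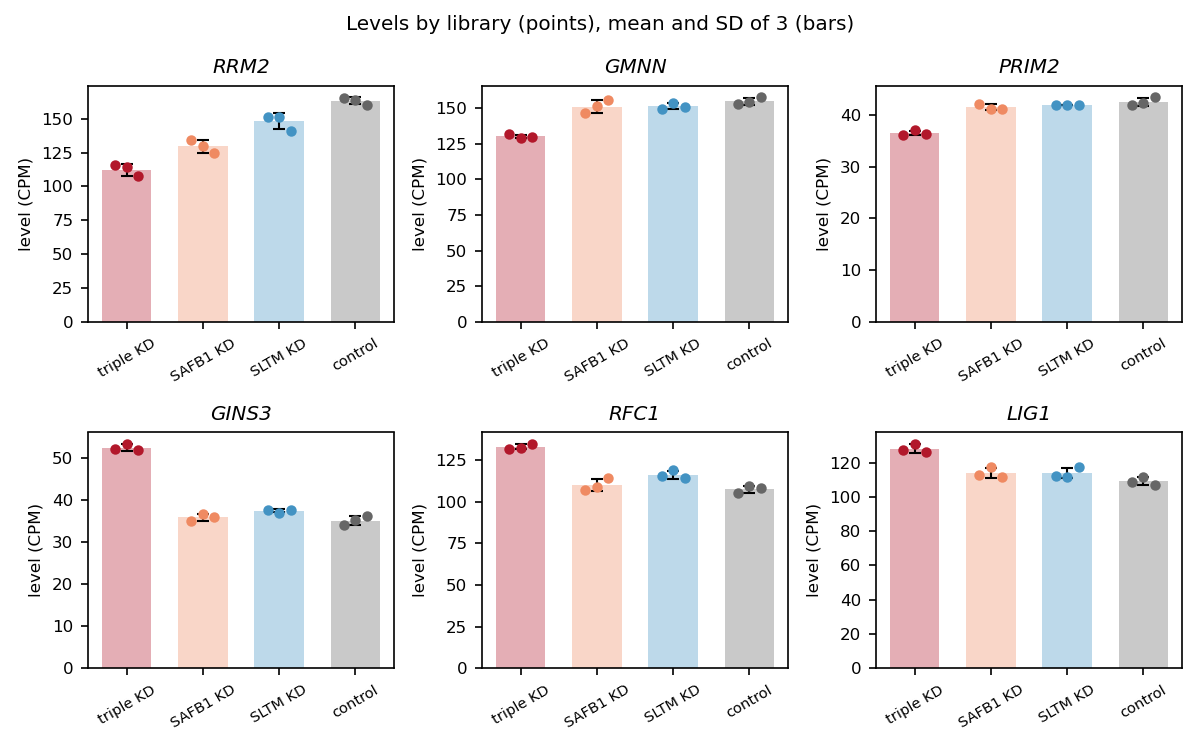
Level in CPM (y axis, from 0) of the genes RRM2, GMNN, PRIM2, GINS3, RFC1 and LIG1 in each library (points), with mean and SD of 3 libraries (bars), for triple KD, SAFB1 KD, SLTM KD and control cells. The triple KD libraries lie below every other library for the genes of the upper row and above every other library for those of the lower row.

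Primase and polymerase genes went both ways. Of the 4 genes of the polymerase alpha and primase complex, POLA1 rose, PRIM1 and PRIM2 fell, and POLA2 was not called. PRIM2 had 36.2, 37.1 and 36.4 CPM in the triple KD libraries, against 42.03, 42.4 and 43.5 CPM in the control libraries. PRIM2 is the large primase subunit. All 3 triple KD libraries of PRIM2 lay below the control libraries, and it fell by 14.2% (log2 fold change -0.22 ± 0.0323, SE, adjusted p = 3.48e-08). PRIM1 had 34.7, 33.6 and 33.8 CPM in the triple KD libraries, against 36.4, 35.3 and 38.5 CPM in the control libraries. PRIM1 is the catalytic primase subunit and overlaps NACA on the same strand in the annotation. PRIM1 fell by 7.41%, with no overlap between triple KD and control libraries (log2 fold change -0.11 ± 0.0380, SE, adjusted p = 0.0143). This call was lost without control replicate 3 (adjusted p = 0.16) or triple KD replicate 2 (adjusted p = 0.075), with DESeq2 (adjusted p = 0.054) and with upper-quartile scaling (adjusted p = 0.0997). POLA1 had 127, 129 and 129 CPM in the triple KD libraries, against 115, 117 and 117 CPM in the control libraries. POLA1 is the catalytic subunit of polymerase alpha. For POLA1, which rose by 10.2% in triple KD cells, the groups did not overlap (log2 fold change 0.14 ± 0.0245, SE, adjusted p = 1.89e-06). POLA2, its second subunit, was the lowest of the 42 genes at 10.6 ± 0.663 CPM in triple KD and 10.7 ± 0.799 CPM in control cells, with a log2 fold change of -0.0026 ± 0.0607 (SE). Another gene model overlaps POLA2 on the same strand in the annotation used here. That annotation is a later release than the one behind the counts, so the overlaps named for this and other genes may differ there.

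POLE fell, and the other genes of polymerases delta and epsilon were not called in triple KD. POLE had 248, 253 and 246 CPM in the triple KD libraries, against 278, 282 and 279.6 CPM in the control libraries. POLE is the catalytic subunit of the leading-strand polymerase. Every triple KD library stood below the control range for POLE, and the gene fell by 11.0% (log2 fold change -0.17 ± 0.020, SE, adjusted p = 1.06e-10). POLE2, its second subunit, had a log2 fold change of -0.070, POLD1, the catalytic subunit of polymerase delta, of 0.048, and POLD3 of -0.0088.

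The clamp loader genes split, with RFC1, RFC2 and RFC4 higher and RFC3 lower in triple KD. RFC1 had 132, 133 and 135 CPM in the triple KD libraries, against 105, 109 and 108 CPM in the control libraries. RFC1 is the large subunit of the loader. All 3 triple KD libraries of RFC1 lay above the control libraries, and it rose by 23.7% (log2 fold change 0.31 ± 0.0249, SE, adjusted p = 1.29e-16). RFC3 had 151, 154 and 149.6 CPM in the triple KD libraries, against 177, 176 and 173 CPM in the control libraries. RFC3 fell by 13.4%, with no overlap between triple KD and control libraries (log2 fold change -0.21 ± 0.0242, SE, adjusted p = 6.15e-11). RFC4 had 65.4, 68.3 and 69.5 CPM in the triple KD libraries, against 59.9, 61.9 and 64.7 CPM in the control libraries. RFC3 and RFC4 are small subunits of the same pentamer. For RFC4, which rose by 8.92% in triple KD cells, the groups did not overlap (log2 fold change 0.12 ± 0.0311, SE, adjusted p = 0.000769). RFC2 rose by 7.99% (adjusted p = 0.000144), and RFC5 was not called (log2 fold change -0.055, adjusted p = 0.0599). PCNA had 392, 400.3 and 408 CPM in the triple KD libraries, against 422, 412 and 432 CPM in the control libraries. PCNA is the sliding clamp. Every triple KD library stood below the control range for PCNA, and the gene fell by 5.21% (log2 fold change -0.077 ± 0.0198, SE, adjusted p = 0.000927). With upper-quartile scaling the call of PCNA was lost (adjusted p = 0.083).

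Of the genes that finish Okazaki fragments, LIG1 rose and FEN1 fell. LIG1 had 127, 131 and 126 CPM in the triple KD libraries, against 109, 112 and 107 CPM in the control libraries. LIG1 is the ligase that seals the nicks. All 3 triple KD libraries of LIG1 lay above the control libraries, and it rose by 17.6% (log2 fold change 0.23 ± 0.0251, SE, adjusted p = 3.97e-12). FEN1 had 128, 128 and 127 CPM in the triple KD libraries, against 141, 139.9 and 138 CPM in the control libraries. FEN1 cuts the flaps and overlaps FADS2 on the same strand. FEN1 fell by 8.45%, with no overlap between triple KD and control libraries (log2 fold change -0.13 ± 0.0223, SE, adjusted p = 2.19e-06).

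In nucleotide supply, RRM2 fell in all 3 knockdowns while its partner RRM1 was not called lower in any. RRM2 had 116, 114 and 107 CPM in the triple KD libraries, against 166, 164 and 161 CPM in the control libraries. RRM2 is the small subunit of ribonucleotide reductase, made in S phase. For RRM2, which fell by 31.2% in triple KD cells, the groups did not overlap (log2 fold change -0.54 ± 0.0266, SE, adjusted p = 2.64e-26). RRM2 had 134, 130.2 and 125 CPM in the SAFB1 KD libraries, against 166, 164 and 161 CPM in the control libraries. Every SAFB1 KD library stood below the control range for RRM2, and the gene fell by 20.6% (log2 fold change -0.33 ± 0.0264, SE, adjusted p = 1.11e-15). RRM2 had 152, 151 and 141 CPM in the SLTM KD libraries, against 166, 164 and 161 CPM in the control libraries. All 3 SLTM KD libraries of RRM2 lay below the control libraries, and it fell by 9.34% (log2 fold change -0.14 ± 0.0262, SE, adjusted p = 6.77e-05). The 4 groups kept the order triple KD, SAFB1 KD, SLTM KD and control from lowest to highest, with no library out of place. Each of the 6 pairwise comparisons of RRM2 was called, including triple KD against SAFB1 KD (a log2 value of -0.21, adjusted p = 3.37e-09) and SAFB1 KD against SLTM KD (-0.19, adjusted p = 1.10e-07). RRM1, the large subunit, averaged 314 ± 3.06 CPM in triple KD and 302 ± 4.76 CPM in control cells and rose by 4.02% (adjusted p = 0.0203). Without control replicate 1 (adjusted p = 0.0995) or control replicate 2 (0.062) that call was lost, as it was without replicate 1 (0.058) or 2 (0.056) of triple KD. With no filter on expression the call of RRM1 was lost as well (adjusted p = 0.076). Per length, RRM2 averaged 47.3 ± 2.14 TPM in triple KD and 70.7 ± 1.82 TPM in control cells, and RRM1 286 ± 4.18 TPM in triple KD and 283 ± 2.0 TPM in control cells. The gap between the 2 genes depends on their annotated exon lengths, 9153 bases for RRM2 and 4233 for RRM1. TYMS had 261, 259 and 258 CPM in the triple KD libraries, against 234, 231 and 236 CPM in the control libraries. TYMS makes thymidylate. TYMS rose by 10.9%, with no overlap between triple KD and control libraries (log2 fold change 0.15 ± 0.0202, SE, adjusted p = 4.58e-09). Pseudogenes named after RRM2 (3) and TYMS (2) exist in the annotation, as they do for PCNA, UNG, ORC1, FEN1, RFC3 and RFC5. Reads that matched more than 1 place equally well were not counted.

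CHAF1A, the large subunit of the chromatin assembly factor, rose in triple KD, while CHAF1B and SLBP were not called. CHAF1A had 229, 236 and 231 CPM in the triple KD libraries, against 203, 207 and 202 CPM in the control libraries. For CHAF1A, which rose by 13.8% in triple KD cells, the groups did not overlap (log2 fold change 0.19 ± 0.0212, SE, adjusted p = 3.21e-11). CHAF1B, its partner, had a log2 fold change of 0.0079 and SLBP, which binds histone mRNA, of 0.029. UNG, which removes uracil from DNA, rose by 4.54% (adjusted p = 0.00707). In the annotation UNG overlaps ACACB, and CHAF1B overlaps MORC3, on the same strand. CCNE2, the only cyclin among the 42 genes, had a log2 fold change of 0.048.

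SAFB1 KD alone changed fewer of the genes. Against control, 7 rose (CDC45, UNG, RFC5, POLD1, CHAF1A, MCM2 and TYMS) and 2 fell (RRM2 and POLE), against 5.04% and 4.62% of all genes tested and 12.1% and 8.41% of the protein-coding genes in the same range. The median log2 fold change of the 42 was 0.03, and apart from RRM2 the values ran from -0.11 to 0.13. No gene of the 42 was called for a change over 1.2-fold, although the estimate for RRM2 (log2 fold change -0.33) was past that size. Of all genes, 0.150% rose and 0.289% fell in that test. None of the 42 was called over 2-fold, where 0.0262% of all genes were called. SAFB1 KD and triple KD are set against the same control libraries. RFC5, a small clamp loader subunit, differed between the knockdowns, with triple KD below SAFB1 KD by a log2 value of -0.16 (adjusted p = 9.99e-08), and for POLD1 that difference was not called (-0.054, adjusted p = 0.0872). CDC45 had 104, 102 and 106 CPM in the SAFB1 KD libraries, against 94.6, 94.5 and 95.6 CPM in the control libraries. Every SAFB1 KD library stood above the control range for CDC45, and the gene rose by 9.11% (log2 fold change 0.13 ± 0.0246, SE, adjusted p = 0.000168). UNG had 244, 245 and 246 CPM in the SAFB1 KD libraries, against 226, 229 and 225 CPM in the control libraries. Each SAFB1 KD library of UNG was above every library of the other groups, although the difference of triple KD from SAFB1 KD was not called (-0.048, adjusted p = 0.0554). All 3 SAFB1 KD libraries of UNG lay above the control libraries, and it rose by 8.09% (log2 fold change 0.11 ± 0.020, SE, adjusted p = 3.77e-05). RFC5 had 114, 113 and 117 CPM in the SAFB1 KD libraries, against 107, 107 and 106 CPM in the control libraries. RFC5 rose by 7.56%, with no overlap between SAFB1 KD and control libraries (log2 fold change 0.11 ± 0.0239, SE, adjusted p = 0.00136). POLD1 had 119, 123 and 117 CPM in the SAFB1 KD libraries, against 111, 112 and 111 CPM in the control libraries. POLD1 is the catalytic subunit of polymerase delta. For POLD1, which rose by 7.32% in SAFB1 KD cells, the groups did not overlap (log2 fold change 0.10 ± 0.0249, SE, adjusted p = 0.00316). POLE had 258, 263 and 256 CPM in the SAFB1 KD libraries, against 278, 282 and 279.6 CPM in the control libraries. Every SAFB1 KD library stood below the control range for POLE, and the gene fell by 7.38% (log2 fold change -0.11 ± 0.0199, SE, adjusted p = 4.40e-05). The call of POLD1 was lost without SAFB1 KD replicate 2 (adjusted p = 0.065), that of MCM2 without SAFB1 KD replicate 2 (0.058) or control replicate 1 (0.052), and that of TYMS without control replicate 2 (0.076).

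In SLTM KD alone, few of the genes were called, and their number depended on the scaling. Against control, 4 rose (RFC4, RFC1, POLE and MCM5) and 3 fell (RFC3, RRM2 and FEN1), against 3.60% and 5.65% of all genes tested and 6.51% and 13.6% of the protein-coding genes in the same range. The median log2 fold change of the 42 was 0.023. No gene of the 42 was called for a change over 1.2-fold, where 0.0674% of all genes rose and 0.135% fell. None was called over 2-fold, where 0.00749% of all genes were called. RFC3 had 159, 161 and 148 CPM in the SLTM KD libraries, against 177, 176 and 173 CPM in the control libraries. All 3 SLTM KD libraries of RFC3 lay below the control libraries, and it fell by 10.9% (log2 fold change -0.17 ± 0.0243, SE, adjusted p = 5.51e-07). FEN1 had 129, 128 and 128 CPM in the SLTM KD libraries, against 141, 139.9 and 138 CPM in the control libraries. FEN1 fell by 8.10%, with no overlap between SLTM KD and control libraries (log2 fold change -0.12 ± 0.0224, SE, adjusted p = 5.86e-05). The difference of triple KD from SLTM KD for FEN1 was -0.0055 ± 0.0226 (log2, SE) and was not called, which does not show the groups to be alike. RFC4 had 66.8, 66.0 and 69.4 CPM in the SLTM KD libraries, against 59.9, 61.9 and 64.7 CPM in the control libraries. For RFC4, which rose by 8.33% in SLTM KD cells, the groups did not overlap (log2 fold change 0.12 ± 0.0313, SE, adjusted p = 0.00913). RFC1 had 116, 119 and 114 CPM in the SLTM KD libraries, against 105, 109 and 108 CPM in the control libraries.  Every SLTM KD library stood above the control range for RFC1, and the gene rose by 8.10% (log2 fold change 0.11 ± 0.0252, SE, adjusted p = 0.00114). POLE had 290.0, 291 and 294 CPM in the SLTM KD libraries, against 278, 282 and 279.6 CPM in the control libraries. All 3 SLTM KD libraries of POLE lay above the control libraries, and it rose by 4.24% (log2 fold change 0.060 ± 0.0199, SE, adjusted p = 0.0438). MCM5 rose by 4.08%, with 307, 306 and 312 CPM in SLTM KD, against 296, 299.7 and 294 CPM in control cells (adjusted p = 0.0463). The calls of POLE and MCM5 sat at the threshold. Leaving out any control, SLTM KD or triple KD library ended the call of POLE (adjusted p = 0.053 to 0.14) and that of MCM5, which was also lost without SAFB1 KD replicate 2 (adjusted p = 0.052 to 0.18). With no filter on expression the calls of POLE (adjusted p = 0.19) and MCM5 (0.21) were lost too. So were they with only the libraries compared (0.0995 for POLE and 0.12 for MCM5). Over the 12 libraries left out in turn, 1 to 5 genes were called higher, with 1 without control replicate 1. RFC4 was lost without control replicate 1 (adjusted p = 0.11) or SLTM KD replicate 3 (0.073). With upper-quartile scaling 12 of the 42 genes rose and 3 fell, more than the 7 and 2 in SAFB1 KD. With a replicate block 10 rose and 5 fell, more than the 9 and 3 in SAFB1 KD. By these counts the order of the single knockdowns turns. The shares of all genes called in these settings were not counted, so the turn is not read as particular to the 42.

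The knockdowns were also compared with each other. Triple KD against SAFB1 KD had 13 higher and 13 lower genes (16.2% and 18.6% of all genes tested, 27.6% and 37.6% of the protein-coding genes in the same range), and with upper-quartile scaling 14 and 9. Triple KD against SLTM KD had 12 higher and 10 lower genes (17.5% and 18.8% of all genes, 33.7% and 32.5% of those protein-coding genes). These comparisons share the triple KD libraries. GINS3, RFC1, LIG1, CDC45, CHAF1A, MCM2, TYMS, POLA1 and ORC1 were higher and RRM2, GMNN, PRIM2, POLE, ORC6, CDT1, CDC6 and MCM7 lower in triple KD than in each single knockdown. Triple KD lay below SAFB1 KD for RFC3 and FEN1, with log2 fold changes of -0.16 and -0.14, but were not called against SLTM KD (-0.041 and -0.0055).

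SAFB1 KD against SLTM KD had 7 higher genes (FEN1, RFC5, UNG, CCNE2, POLD1, RFC3 and CDC45) and 5 lower genes (RRM2, POLE, PRIM1, RFC1 and CDT1), against 9.27% and 6.78% of all genes tested and 22.7% and 10.7% of the protein-coding genes in the same range. The widest gap after RRM2 was that of POLE, with 258, 263 and 256 CPM in SAFB1 KD, against 290.0, 291 and 294 CPM in SLTM KD, and control libraries in between. Against control POLE fell in SAFB1 KD, its call in SLTM KD was lost in most alternatives, and the log2 fold change between the knockdowns was -0.17 ± 0.020 (SE, adjusted p = 1.02e-09). CCNE2, cyclin E2, was higher in SAFB1 KD with 45.6, 47.6 and 47.4 CPM, against 44.9, 44.2 and 39.8 CPM in SLTM KD (log2 fold change 0.12, adjusted p = 0.00840), although neither group was called against control. Without SAFB1 KD replicate 1 or SAFB1 KD replicate 2 the count of lower genes was 3.

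The triple KD change was then set against the changes of SAFB1 KD and SLTM KD added together on the log2 scale. A departure holds the SAFB2 siRNA as well as any joint effect, and these cannot be told apart. Of the 42 genes, 4 lay above the sum (GINS3, RFC1, LIG1 and SLBP) and 10 below it (GMNN, PRIM2, CDC6, ORC6, POLD3, RFC5, POLE, MCM10, CDT1 and MCM7), against 9.48% and 11.9% of all genes tested and 19.7% and 25.0% of the protein-coding genes in the same range. GINS3 departed by 0.46 ± 0.0472 (SE, adjusted p = 4.79e-12). Its single knockdowns gave 0.030 and 0.092, neither called, against 0.58 in triple KD. RRM2 departed by -0.064 ± 0.0377 (adjusted p = 0.261), which was not called. Without control replicate 2 or SAFB1 KD replicate 3, 2 genes rather than 4 lay above the sum.

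Across the 42 genes, 13 were called in no comparison with control (CCNE2, CHAF1B, GINS1, GINS2, GINS4, MCM10, MCM4, MCM6, ORC2, POLA2, POLD3, POLE2 and SLBP). RRM2 was the only gene of the 42 called lower in all 3, and none of them was called higher in all 3. The shares of all genes tested with these patterns were not counted, so the patterns are not read as particular to the 42. Per length, control levels ran from 1191 ± 27.1 TPM for PCNA to 3.52 ± 0.278 TPM for POLA2. This range depends on annotated exon lengths, 1403 bases for PCNA and 12006 for POLA2. In the annotation used, PCNA and POLA2 each overlap another gene model on the same strand. Reads over more than 1 gene are not counted, and how far this lowers these levels was not tested.

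Other cell cycle genes changed in both directions too. Of 41 other replication genes, 11 rose, 17 fell and 13 were not called in triple KD. Over all genes tested 19.4% rose and 20.9% fell, and among protein-coding genes in the range of the 42, 34.1% and 37.2%. The 41 genes had a median log2 fold change of -0.013. Their median absolute change was 0.14, against 0.27 over all genes tested and 0.14 in those protein-coding genes. CDC25A, a phosphatase that activates CDK2, averaged 93.0 ± 3.19 CPM in triple KD and 152 ± 1.5 CPM in control cells (-0.71, adjusted p = 7.40e-35). ORC5 (-0.41) and WDHD1 (-0.40) fell next most, and CCNE1 (0.26), TICRR (0.24) and TK1 (0.21) rose most. Of 25 G2/M genes, 14 rose and 5 fell (19.4% and 20.9% of all genes tested, 34.1% and 37.2% of protein-coding genes in the range of the 42), with a median of 0.087, and UBE2C (0.36), TOP2A (0.36) and CDC20 (0.30) rose most while MAD2L1 (-0.67), CDK1 (-0.19) and AURKA (-0.12) fell most.

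Regulators of G1/S were also measured. Of 21 RB and E2F pathway genes, 13 rose and 4 fell in triple KD. Over all genes tested 19.4% rose and 20.9% fell, and among protein-coding genes in the range of the 42, 34.1% and 37.2%. The median absolute log2 change of the 21 genes was 0.23, against 0.27 over all genes tested and 0.14 in those protein-coding genes. A change over 2-fold was called for 3 of the 21 and for 0.955% of all genes. RB1, which encodes the retinoblastoma protein, averaged 54.4 ± 0.718 CPM in triple KD, 124 ± 4.80 CPM in SAFB1 KD, 139 ± 6.12 CPM in SLTM KD and 146 ± 1.36 CPM in control cells, a log2 fold change of -1.42 in triple KD (adjusted p = 4.10e-47). E2F5 fell as well (-1.30), as did CDK6 (-0.51). CCND3, cyclin D3 (1.30), E2F2 (0.80) and the kinase inhibitor CDKN1A (0.46) rose most. E2F2 averaged 54.5 ± 3.15 CPM in triple KD and 31.4 ± 0.131 CPM in control cells. E2F1 was not called (-0.032). These levels moved in the same libraries as the 42 genes, and their part in the changes was not tested.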

How the data were processed

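The authors trimmed reads with cutadapt, used STAR 2.7.9a with the GENCODE annotation of GRCh38, and deposited reverse-stranded read counts per gene of uniquely mapped reads, 1 library per file and not normalised. Reads over more than 1 gene on the same strand are left out of such counts. Symbols, positions and exon lengths came from a later GENCODE release on the same build, which held 58207 of the 58780 IDs.

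Genes with at least 10 summed counts (26688) were fitted with edgeR 4.0.16 in R 4.3.3 on all 12 libraries with TMM factors and a term for group. Quasi-likelihood F tests were two-sided, adjusted by Benjamini-Hochberg across the whole table, and genes with an adjusted p under 0.05 were called. All adjusted p-values come from this test unless another tool is named. Changes over 1.2-fold and 2-fold were tested with glmTreat, and over 2-fold also with DESeq2 1.42.0. A p-value sets the difference between groups against the spread among libraries of a group. That spread was estimated from all 12 libraries (8 residual degrees of freedom) and drawn towards that of other genes (51 prior degrees of freedom). The fit was tested on simulated counts. Replicates differed by more than counting noise in every group.

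The 42 genes and the other lists were chosen with earlier results of these data known. Values by library are given for the 10 highest and 10 lowest genes called in triple KD, the 4 highest and 4 lowest called in each single knockdown, and departures over 0.2. Alternatives were upper-quartile scaling, DESeq2 size factors, other filters, DESeq2, limma-voom (limma 3.58.1), only the libraries compared, a replicate block and each library left out.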

Additional observations from a re-analysis of the deposited data

How the results depend on the processing

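None of the 43 calls of single genes against control changed sign under any alternative that was run, and the median log2 change of all genes tested moved by less than 0.1. In triple KD against control, leaving out each library gave 14 to 15 higher and 11 to 13 lower genes of the 42, and upper-quartile scaling gave 19 and 8. In SLTM KD against control, the 4 higher genes became 12 with upper-quartile scaling, 7 with edgeR's own expression filter, 2 with no filter, 2 with only the libraries compared and 1 to 5 with each library left out. For SAFB1 KD against SLTM KD, leaving out each library gave 3 to 6 lower genes, and 2 to 5 genes lay above the sum of the single knockdowns. In triple KD, a second gene was called over 1.2-fold higher with upper-quartile scaling, DESeq2 size factors or the expression filter. The same held with only the libraries compared and with the replicate block, so 2 genes in each case against 1. The departure from the sum already uses all 12 libraries and was not rerun with only the libraries compared. With upper-quartile scaling, the median log2 change from control over all genes tested went from -0.0044 to 0.029 for triple KD. The same median went from 0.0050 to 0.024 for SLTM KD and from 0 to -0.00076 for SAFB1 KD. In triple KD, MCM7 moved from -0.067 to -0.034, CDC6 from -0.076 to -0.043 and PCNA from -0.077 to -0.044. The median absolute change of the 42 genes there was 0.084. What changed the numbers of calls was not tested. Shares of all genes called were counted for the main fit only.

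With the replicate block, that is the replicate number as a term, SLTM KD against control had 10 higher and 5 lower genes, and triple KD against control 15 and 13. Deviations of same-numbered libraries correlated between -0.025 and 0.14 over 18 pairs of libraries, with 1 pair over 0.1. Those of libraries with other numbers correlated between -0.11 and 0.064. Of the 12 libraries, 11 correlated best with a library of their own number. Whether the number pairs the samples was not tested. The main fit had no term for it because the study names none, so calls that change with the block depend on this choice.

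Of the 43 calls, 11 were lost under at least 1 alternative, and the largest absolute log2 fold change among those was 0.12. The lowest count of any of the 42 genes in a library was 507, for POLA2.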

Other observations

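Subunits of other replication complexes also differed in direction in triple KD against control. These were picked after their values had been seen. Of the origin recognition complex, ORC3 (log2 fold change -0.16), ORC4 (-0.20) and ORC5 (-0.41) fell as ORC6 did, whereas ORC1 rose. Of replication protein A, which coats single-stranded DNA, RPA1 rose (0.17), RPA3 fell (-0.20) and RPA2 was not called (-0.0079). DBF4, the activating partner of the kinase CDC7, fell (-0.38), and CDC7 was not called (0.024).

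CDC25A was called in neither single knockdown against control, with log2 fold changes of -0.021 in SAFB1 KD and 0.017 in SLTM KD. It averaged 150.2 ± 0.417 CPM in SAFB1 KD and 154 ± 1.68 CPM in SLTM KD cells (SD, n = 3 each). Its departure in triple KD from the sum of the single knockdowns was -0.71 ± 0.0334 on the log2 scale (SE, edgeR adjusted p = 1.50e-26).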
